A study of Capra hircus with 36 samples.

Results

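The miRNAs described here are the mature forms of miR-378, miR-103, miR-107 and miR-33 in goat small RNA libraries. They were chosen by name: every listed form called miR-378 with any letter, miR-103, miR-107, miR-33a or miR-33b, either arm, with or without the prefix that marks a form conserved with other mammals. This gave 10 of 1391 listed mature miRNAs. They are chi-miR-378-3p, chi-miR-378-5p, conserve-chi-miR-378d-5p, conserve-chi-miR-378g-5p, chi-miR-103-3p, chi-miR-103-5p, chi-miR-107-3p, chi-miR-107-5p, chi-miR-33a-3p and chi-miR-33a-5p. For miR-33b, 0 listed forms were found.

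Small RNA was sequenced from heart, longissimus muscle, liver, kidney, lung and spleen of 3 Tibetan Goat females living at 3000 m and 3 Chuandong White Goat females living at 600 m, all adults of about 3 years with no treatment named. Each combination of tissue and altitude has 3 libraries, each from a different goat, which gives 36 libraries. The comparison of the populations asks how miRNA levels differ with altitude, but breed and altitude cannot be told apart in this design. Each library held between 7108635 and 14407748 counts over its mature miRNAs, at which 3 counts equal 0.422 and 0.208 RPM (counts scaled to a library total of 1000000), a floor that covers counting error only.

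The labelled tissues were checked against miRNAs that mark them, with levels summed over the listed forms. The heart markers miR-208a, miR-208b and miR-499 summed to between 17104 and 24101 RPM in the heart libraries and to at most 4836 RPM in muscle and 288 RPM in any other tissue. The liver miRNA miR-122 lay between 6201 and 179959 RPM in liver and reached 209 RPM elsewhere. Of the skeletal muscle miRNA miR-206, muscle held 45.9 to 7759 RPM and the other tissues at most 8.72 RPM. The markers of ciliated cells, miR-34b, miR-34c and miR-449a, were at 2997 RPM or more in lung and at most 56.4 RPM elsewhere, and the leukocyte miRNAs miR-142, miR-150, miR-155 and miR-223 had their highest median, 38462 RPM, in spleen, although the highest liver library, at 22825 RPM, was above the lowest spleen library, at 17706 RPM. The kidney markers did not separate kidney from liver: miR-194 had a median of 2116 RPM in kidney and 16370.2 RPM in liver, and miR-204 had 738 RPM in kidney and 521 RPM in liver, while both were lower in the other 4 tissues. The miRNAs of red blood cells, miR-144 and miR-486, summed to a median of 16779 RPM in heart and 18598 RPM in muscle, most of it miR-486-5p, which striated muscle also expresses.

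A miRNA is cut from a hairpin precursor whose arms give a 5p and a 3p form, and it lowers the output of mRNAs that pair with its seed. miR-378, miR-103, miR-107 and miR-33 are known for metabolism, and the miRNA genes looked up for them sit inside genes of metabolism. No host gene was looked up for miR-378d or miR-378g. In the RefSeq annotation of the goat assembly ARS1.2, where 5 of 5 miRNA genes were found by symbol, MIR378 lies within PPARGC1B, which encodes a coactivator of mitochondrial energy metabolism. MIR103 lies within PANK2 and MIR107 within PANK1, genes of pantothenate kinases, the enzymes that start coenzyme A synthesis. MIR33A lies within SREBF2 and MIR33B within SREBF1, genes of transcription factors that control cholesterol and fatty acid synthesis. miR-378 is known from muscle and fat cells, miR-103 and miR-107 from insulin signalling, and miR-33 from the control of cholesterol export.

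Of the 10 members, 7 averaged at least 10 RPM over the 36 libraries. The most abundant was chi-miR-378-3p, which ranked 19 of the 1391 miRNAs by mean RPM, followed by chi-miR-103-3p at rank 58 and chi-miR-107-3p at rank 70. The other 3 were rare. chi-miR-33a-3p was detected in 35 libraries with at most 51 counts, chi-miR-103-5p in 24 libraries with at most 12 counts and conserve-chi-miR-378g-5p in 8 libraries with at most 6 counts.

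Striated muscle held far more miR-378 than the other tissues. The mean of chi-miR-378-3p was 34380 ± 7473 RPM (SD, n = 6) in muscle and 21122 ± 5679 RPM in heart, against 2823 ± 998 RPM in spleen, 2000.5 ± 522 RPM in liver, 1808 ± 1160.0 RPM in kidney and 1213 ± 423 RPM in lung. Levels depend on the scaling, and on TMM-scaled library size the mean in muscle was 58234 RPM and in heart 27061 RPM. It was the miRNA of rank 6 in muscle and rank 14 in heart by mean RPM, and of rank 40 to 57 in the other 4 tissues. All miR-378 forms together made up 3.49% of the counts in muscle and 2.17% in heart on average, and at most 0.417% in any library of the other tissues. The total of listed counts includes chi-miR-133a-3p and chi-miR-133b-5p, whose counts are equal in all 36 libraries. Each averaged 236115 RPM in muscle, 123717 RPM in heart and at most 2539 RPM in the other tissues. Levels with 1 of these rows left out of the total were not computed.

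In heart, chi-miR-378-3p was at 19821, 30707 and 21336 RPM in the 3 high-altitude libraries and at 14560.3, 16785 and 23521 RPM in the 3 low-altitude libraries. The muscle values were 29049.8, 43599 and 24506 RPM at high altitude and 31422, 35720.1 and 41982 RPM at low altitude. The ranges of heart and muscle overlapped, but within each of the 6 goats heart held less than muscle, with a ratio of heart to muscle between 0.463 and 0.871.

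The liver libraries held 1317, 2873 and 2243 RPM of chi-miR-378-3p at high altitude and 1911, 1887 and 1771 RPM at low altitude. In kidney the values were 1153, 3918 and 974 RPM and 1266, 1116 and 2422 RPM in the same order, and in lung 1148, 1929 and 797 RPM and 1474, 879 and 1048 RPM. The spleen libraries held 3413, 3296 and 4150.3 RPM at high altitude and 2723, 1594 and 1763 RPM at low altitude. The lowest heart or muscle library, at 14560.3 RPM, was above the highest library of the other 4 tissues, at 4150.3 RPM, so these did not overlap. Among spleen, liver, kidney and lung, the ranges of neighbours in the order of the means overlapped. Spleen was also the only tissue of the 6 where all 3 high-altitude libraries lay above all 3 low-altitude libraries. Of all miRNAs with at least 10 counts in each spleen library of 1 altitude, 27.7% did not overlap between altitudes.

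**Figure D1:**
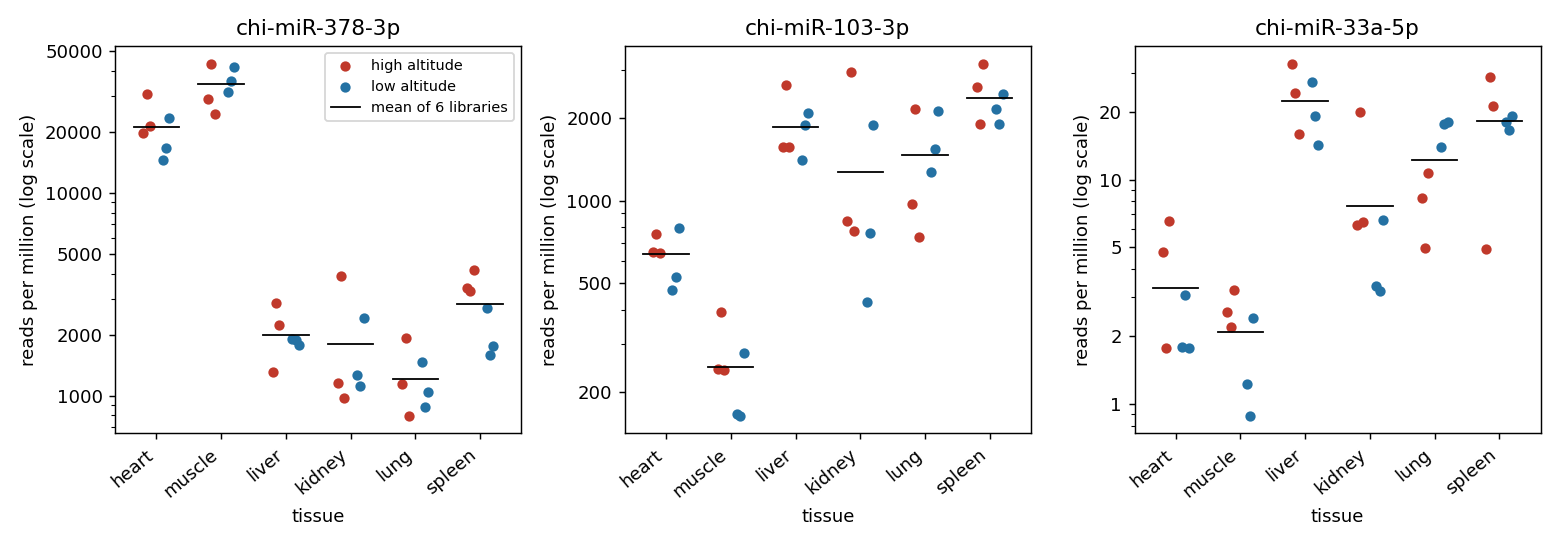
RPM (vertical axis, log scale) of chi-miR-378-3p, chi-miR-103-3p and chi-miR-33a-5p in each of the 36 libraries, by tissue. Points are libraries, red for high and blue for low altitude, and the line is the mean of the 6 libraries of a tissue; chi-miR-378-3p was highest in heart and muscle, where the other miRNAs were lowest.

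The tissue difference was tested with edgeR's quasi-likelihood test over all 1391 miRNAs, with the goat as a block, and a miRNA was called where its Benjamini-Hochberg adjusted p was below 0.05 and its log2 fold was 1.5 or more in size. In the mean of heart and muscle against the mean of the other 4 tissues, 3 of the 10 members were called higher, against 5.68% of all miRNAs, and 1 was called lower, against 6.4%. chi-miR-378-3p was higher by a log2 fold change of 4.78 (SE 0.14, adjusted p = 5.04e-22 from edgeR), and in 6 of 6 goats heart held more than liver. Its other arm, chi-miR-378-5p, had a log2 fold change of 4.47 (SE 0.16, adjusted p = 7.22e-20 from edgeR). Both arms of this 1 precursor thus count among the 3 members called higher. With the low-count filter filterByExpr, 4 of 8 members were called in this contrast, against 24.5% of 652 miRNAs.

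Heart against liver gave 2 members called higher, against 4.82% of all miRNAs, and 2 called lower, against 6.33%. The lower ones were chi-miR-33a-5p and chi-miR-107-5p, but with both arms summed miR-107 was not called, and the call of chi-miR-107-5p was lost without high-altitude replicate 1, high-altitude replicate 2 or low-altitude replicate 1. Here chi-miR-378-3p had a log2 fold change of 4.17 (SE 0.25, adjusted p = 9.91e-14 from edgeR). For muscle against liver, 2 members were called higher, against 6.18% of all miRNAs, and 2 lower, against 6.04%, and the log2 fold change of chi-miR-378-3p was 5.27 (SE 0.26, adjusted p = 2.29e-15 from edgeR). In heart against muscle, 0 members were called higher, against 3.09% of all miRNAs, and 0 lower, against 3.95%. The fold of chi-miR-378-3p in that contrast was -1.11 on the log2 scale (SE 0.22, adjusted p = 0.000676 from edgeR), which missed the minimum size. In heart against muscle 3 members had an unadjusted p under 0.05 in edgeR's test, against 251 of all 1391. The same number of members had an adjusted p under 0.05 in edgeR, against 9.35% of all miRNAs. DESeq2 also called 0 members with both thresholds, against 262 of all 1391.

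The fitted folds between tissues depend on the scaling. The forms of miR-1, miR-133a and miR-133b summed to a median of 242144 RPM in heart and 497798 RPM in muscle, a sum in which chi-miR-133a-3p and chi-miR-133b-5p carry equal counts in all 36 libraries; whether the same reads stand in both was not tested. Over the 308 miRNAs averaging at least 10 RPM, the median log2 fold change on library size alone was -0.66 in heart against liver, -1.11 in muscle against liver, -0.85 in heart and muscle against the other 4 and 0.29 in heart against muscle, whereas with TMM scaling it was 0.07, 0.01, 0.02 and -0.12. The direction of chi-miR-378-3p and chi-miR-103-3p in the 4 contrasts was the same under TMM, RLE (the size factors of DESeq2) and library size alone. On library size alone the log2 fold change of chi-miR-378-3p was smaller, 3.39 in heart against liver, 4.12 in muscle against liver and 3.87 in heart and muscle against the other 4, all still called, and -0.73 in heart against muscle, where its adjusted p in edgeR was no longer under 0.05. These are bulk tissues, so fewer cells of a type and less of a miRNA per cell cannot be told apart.

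The passenger arm followed the main arm. chi-miR-378-5p averaged 172 ± 68.6 RPM (SD, n = 6) in muscle and 108 ± 22.2 RPM in heart, and between 8.47 and 15.6 RPM in the other 4 tissues, in the same order of tissues as chi-miR-378-3p. Its lowest heart or muscle library was at 84.9 RPM and its highest other library at 23.99 RPM. Within a library its count was 0.260% to 0.999% of that of chi-miR-378-3p, with a median of 0.575% over the 36 libraries.

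conserve-chi-miR-378d-5p varied more between goats. Its heart values were 915, 897 and 478 RPM at high altitude and 231, 0.464 and 16.4 RPM at low altitude, and the muscle values 79.2, 356 and 584 RPM and 251, 0.665 and 751 RPM. All 3 high-altitude heart libraries were above the 3 low-altitude ones, whereas in muscle the altitudes overlapped. In heart 35.2% of all miRNAs with at least 10 counts in each library of 1 altitude did not overlap. conserve-chi-miR-378d-5p reached that depth in heart only at high altitude, where it was higher, so the order there gives no support. In the other 4 tissues it was at 0 in 11 of 24 libraries and reached 270 RPM in spleen. In both heart and muscle, low-altitude replicate 2 held under 1 RPM, with 5 and 9 counts. The same goat held 147 RPM in spleen, 7.17 RPM in liver, 4.88 RPM in lung and 0 RPM in kidney. The fitted log2 fold change of heart and muscle against the other 4 tissues was 5.42 (SE 1.56, adjusted p = 0.0122 from edgeR), but without high-altitude replicate 2 the fold was 5.51 and the adjusted p of edgeR 0.0525, and without high-altitude replicate 3 they were 4.22 and 0.0553, in a range over the alternatives from 0.000217 to 0.0553. Neither heart nor muscle against liver was called for it with all miRNAs in edgeR, while with filterByExpr and with DESeq2 both were.

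For miR-103 heart and muscle stood at the low end of the order, and spleen and liver came first. The mean of chi-miR-103-3p was 2365 ± 487 RPM (SD, n = 6) in spleen, 1859 ± 455 RPM in liver, 1468 ± 588 RPM in lung, 1275 ± 961 RPM in kidney, 641 ± 126 RPM in heart and 247 ± 84.4 RPM in muscle, the last being 419.9 RPM on TMM-scaled library size. Adjacent tissues in this order overlapped except heart and muscle, where the lowest heart library was at 473 RPM and the highest muscle library at 393 RPM.

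The heart libraries held 648, 757 and 645 RPM of chi-miR-103-3p at high altitude and 473, 526 and 796 RPM at low altitude. Muscle held 243, 393 and 241 RPM and 167, 164 and 277 RPM, respectively. In liver, chi-miR-103-3p was at 1566, 2640.5 and 1567 RPM at high altitude and at 1412, 1881 and 2085 RPM at low altitude. The altitudes overlapped in heart, muscle and liver.

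In kidney, chi-miR-103-3p was at 843, 2957 and 772 RPM at high altitude and at 427, 764 and 1884 RPM at low altitude. The lung values were 976, 2158 and 736 RPM and 1268, 1548 and 2123 RPM, and the spleen values 2607, 1905 and 3168 RPM and 2158, 1899 and 2454 RPM. The altitudes overlapped in each of these tissues too, and 1 goat at each altitude stood above the rest in kidney, high-altitude replicate 2 and low-altitude replicate 3. High-altitude replicate 2 had the highest chi-miR-103-3p of the 6 goats in 4 of 6 tissues and the highest chi-miR-378-3p in 5 of 6.

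In muscle against liver chi-miR-103-3p was lower, with a log2 fold change of -1.77 (SE 0.22, adjusted p = 3.69e-07 from edgeR), and this row was called under each of the 11 alternatives that kept it as its own row. In heart against liver its log2 fold change was -0.76 (SE 0.22, adjusted p = 0.0146 from edgeR), and in heart against muscle 1.004 (SE 0.22, adjusted p = 0.0018 from edgeR), neither of which reached the minimum size with TMM. In heart and muscle against the other 4 it was -1.15 (SE 0.14, adjusted p = 1.44e-07 from edgeR), also short of that size. On library size alone it was -1.52 in heart against liver and -2.07 in heart and muscle against the other 4, and both were called.

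The counts of miR-107 nearly coincided with those of miR-103 in most libraries. In 25 libraries the reads of miR-107 were listed under chi-miR-107-3p and in the other 11 under chi-miR-107-5p, and the arm not used held at most 1 count where the used arm held at least 2029. In the 25 libraries the miR-107 count was 99.1% to 99.9% of the chi-miR-103-3p count, with a difference of 2 to 164 counts and a median difference of 23. In the 11 libraries it was 55.3% to 98.3%, with a difference of 213 to 7512 counts. In all 36 libraries chi-miR-103-3p had at least as many counts as miR-107. The mature forms of miR-103 and miR-107 are near-identical copies, and reads of one cannot be told apart from those of the other in these tables, so the levels of both are uncertain; how the reads were assigned was not tested.

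**Figure D2:**
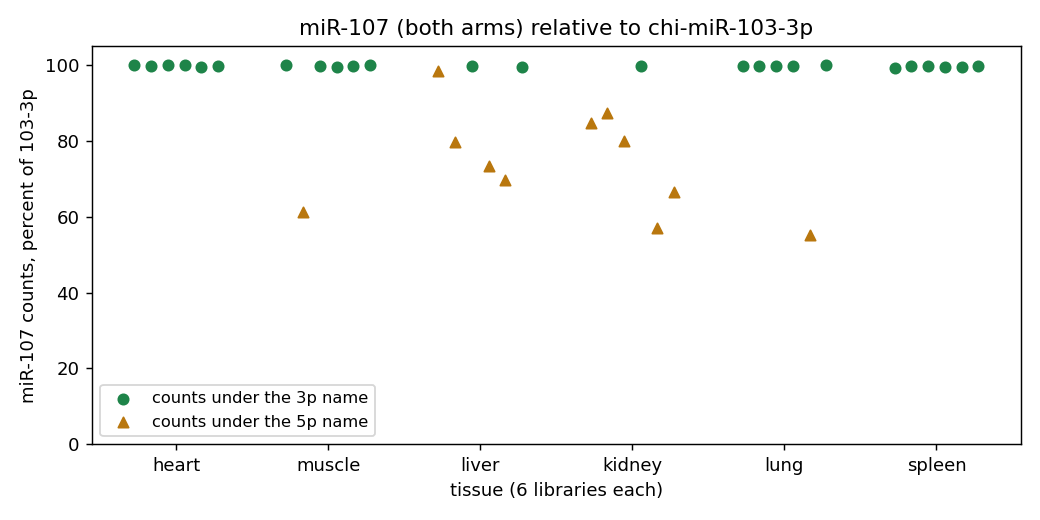
Counts of miR-107, both arms summed, as a percent of the counts of chi-miR-103-3p in each of the 36 libraries (vertical axis) by tissue. Circles are the 25 libraries with the counts under the 3p name, all at 99.1% or more, and triangles are the 11 with the counts under the 5p name, at 55.3% to 98.3%.

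In heart, chi-miR-107-3p had 8001, 9365 and 7587 counts at high altitude and 5771, 5641 and 9805 counts at low altitude, and in spleen 18897, 17952 and 34796 and 22553, 16434 and 21973. All 12 of these libraries used the 3p name. In muscle chi-miR-107-3p had 3495, 0 and 3079 counts at high altitude and 2029, 2210 and 3418 counts at low altitude, where the library at 0 held 3075 counts of chi-miR-107-5p. In lung it had 9397, 22267 and 7496 and 12259, 0 and 21600 counts, where the library at 0 held 9286 counts of chi-miR-107-5p.

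In liver, chi-miR-107-3p had 0, 0 and 14314 counts at high altitude and 0, 0 and 17437 counts at low altitude, and chi-miR-107-5p had 12103, 19385 and 0 and 8982, 9332 and 0. In kidney the high-altitude libraries held 0, 0 and 0 counts of chi-miR-107-3p and the low-altitude libraries 4210, 0 and 0, while chi-miR-107-5p had 7633, 24894 and 6884 and 0, 4897 and 12714. The 5p name was thus used in 4 of 6 liver and 5 of 6 kidney libraries, in 1 of 6 muscle and 1 of 6 lung libraries and in 0 of 6 heart and 0 of 6 spleen libraries. It was used in 6 high-altitude and 5 low-altitude libraries. Of 305 precursor names with both arms listed and at least 100 counts in some library, 8 had their arms exchanged between libraries in this way.

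With both arms summed, miR-107 had the tissue order of chi-miR-103-3p, with means of 2355 ± 485 RPM (SD, n = 6) in spleen, 1605 ± 422 RPM in liver, 1351 ± 634 RPM in lung, 1005 ± 830 RPM in kidney, 640 ± 126 RPM in heart and 222 ± 46.3 RPM in muscle. The miR-107 count was 99.1% to 99.9% of the chi-miR-103-3p count in 25 libraries. The order and folds of the summed arms are therefore not independent of those of chi-miR-103-3p. By its own row chi-miR-107-3p averaged 2355 ± 485 RPM in spleen, 1208 ± 833 RPM in lung, 640 ± 126 RPM in heart, 606 ± 953 RPM in liver, 182 ± 99.8 RPM in muscle and 71.0 ± 174 RPM in kidney, of which muscle and kidney were at 332 and 129 RPM on TMM-scaled library size. In heart against liver the row chi-miR-107-3p had a log2 fold change of 1.59 (SE 2.43, adjusted p = 0.795 from edgeR), and from 0.97 to 3.95 without a goat. The summed arms gave -0.52 there (SE 0.24, adjusted p = 0.195 from edgeR). In muscle against liver the row gave 0.00 (SE 3.06, adjusted p = 1 from edgeR) and the summed arms -1.76 (SE 0.25, adjusted p = 1.57e-06 from edgeR). chi-miR-107-5p was called lower in heart than in liver (adjusted p = 0.00719 from edgeR), where 5 heart libraries were at 0 and 1 held 1 count, so its fitted fold depends on the prior count and is not given; without high-altitude replicate 1, high-altitude replicate 2 or low-altitude replicate 1 the adjusted p of edgeR was 0.0997, 0.0827 and 0.0810, in a range over the alternatives from 3.10e-05 to 0.0997. In muscle against liver it was not called with all goats, but was called lower without high-altitude replicate 2, whose muscle library used the 5p name (adjusted p = 0.0383 from edgeR, 0.0383 to 0.457 over the goats left out), and also with DESeq2, with filterByExpr, on library size alone and without the block. In heart and muscle against the other 4 it was called with DESeq2 but not with edgeR.

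Far fewer reads came from miR-33. The mean of chi-miR-33a-5p was 22.3 ± 7.14 RPM (SD, n = 6) in liver, 18.2 ± 7.77 RPM in spleen, 12.3 ± 5.26 RPM in lung, 7.65 ± 6.26 RPM in kidney, 3.29 ± 1.98 RPM in heart and 2.09 ± 0.872 RPM in muscle. Neighbours in this order overlapped, but the lowest liver library, at 14.3 RPM, was above the highest heart or muscle library, at 6.54 RPM. The fit gave a log2 fold change of -2.14 in heart against liver (SE 0.48, adjusted p = 0.00146 from edgeR), -2.33 in muscle against liver (SE 0.48, adjusted p = 0.000570 from edgeR) and -1.61 in heart and muscle against the other 4 tissues (SE 0.30, adjusted p = 0.000160 from edgeR). These were called in each of the 11 alternatives that kept the row, and on library size alone they were larger, -2.82, -3.49 and -2.44. The other arm, chi-miR-33a-3p, had a log2 fold change of -1.73 in heart against liver (SE 0.65, adjusted p = 0.0824 from edgeR) and -1.40 in heart and muscle against the other 4 (SE 0.41, adjusted p = 0.0132 from edgeR), the latter short of the minimum size. It was not called with all goats, but in heart against liver it was called lower without low-altitude replicate 2 (adjusted p = 0.0242 from edgeR, 0.0242 to 0.374 over the goats left out), and also with DESeq2 and on library size alone. In heart and muscle against the other 4 it was called lower without high-altitude replicate 1 or 3 (adjusted p = 0.0231 and 0.0152 from edgeR, 0.00948 to 0.0737 over the goats left out), and also on library size alone. In muscle against liver its log2 fold change was -1.56 (SE 0.64, adjusted p = 0.109 from edgeR), and it was called lower with DESeq2, with filterByExpr and on library size alone.

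In heart, chi-miR-33a-5p was at 4.77, 1.78 and 6.54 RPM at high altitude and 1.8, 3.06 and 1.78 RPM at low altitude, and in muscle at 2.57, 2.2 and 3.21 RPM and 1.23, 0.886 and 2.43 RPM. The liver values were 32.9, 24.4 and 15.9 RPM and 27.2, 19.3 and 14.3 RPM, and the kidney values 6.27, 20.01 and 6.46 RPM and 3.34, 3.2 and 6.61 RPM. The altitudes overlapped in these 4 tissues. In lung it was at 8.29, 4.93 and 10.7 RPM at high altitude and at 14.04, 17.7 and 18.1 RPM at low altitude, and in spleen at 4.92, 28.8 and 21.4 RPM and 18.00, 16.7 and 19.2 RPM. In lung all 3 low-altitude libraries were above the 3 high-altitude libraries. Of all miRNAs with at least 10 counts in each lung library of 1 altitude, 23.6% did not overlap. The other arm, chi-miR-33a-3p, had 15, 18 and 7 counts in lung at high altitude against 24, 24 and 22. It reached that depth only at low altitude, where it was higher, so its order gives no support. In spleen the altitudes overlapped for chi-miR-33a-5p, with high-altitude replicate 1 the lowest.

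Altitude was compared within each tissue, 3 libraries against 3, with edgeR over the same 1391 miRNAs. Of the 10 members, 0 passed both thresholds in any tissue, where the share of all miRNAs called was 0.0% in heart, 0.0719% in muscle, 0.0% in liver, 0.0% in kidney, 0.0% in lung and 0.144% in spleen. Over the 60 pairs of member and tissue, 1 had an unadjusted p under 0.05 in edgeR, chi-miR-378-3p in spleen, against 444 of 8346 over all miRNAs. DESeq2 called 0 members in every tissue, against 179 calls over all miRNAs and tissues, with 2 members at an unadjusted p under 0.05, against 604 of the 5181 pairs that had a p. A p that misses the threshold does not show that the levels were alike.

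High over low altitude, the log2 fold change of chi-miR-378-3p was 0.25 in heart (SE 0.29), -0.08 in muscle (SE 0.32), 0.29 in liver (SE 0.37), 0.15 in kidney (SE 0.44) and 0.26 in lung (SE 0.35), each with an adjusted p of 1 from edgeR. In spleen it was 0.80 (SE 0.32, adjusted p = 0.729 from edgeR), with means of 3620 RPM at high and 2027 RPM at low altitude and no overlap of the libraries. The same lack of overlap was seen in 27.7% of all spleen miRNAs with at least 10 counts in each library of 1 altitude. The other arm, chi-miR-378-5p, overlapped in spleen, with 8.89, 19.6 and 23.99 RPM at high and 20.6, 9.78 and 10.6 RPM at low altitude, and its fold was 0.28 (SE 0.56, adjusted p = 1 from edgeR). The adjusted p of chi-miR-378-3p in spleen ranged from 0.0893, with DESeq2, to 1 over the alternatives. For chi-miR-103-3p the folds were 0.05 in heart (SE 0.27), 0.64 in muscle (SE 0.35), 0.17 in liver (SE 0.33), 0.60 in kidney (SE 0.41), -0.30 in lung (SE 0.35) and 0.20 in spleen (SE 0.34), with adjusted p from 0.799 to 1 in edgeR.

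By its own row chi-miR-107-3p had log2 fold changes of 0.05 in heart (SE 0.27), 0.04 in muscle (SE 1.87), -0.05 in liver (SE 3.91), 0.24 in lung (SE 1.99) and 0.20 in spleen (SE 0.34); in kidney all 3 high-altitude libraries were at 0, and no fold is given. Summed over both arms, the folds of miR-107 were -0.02 in heart (SE 0.26), 0.45 in muscle (SE 0.39), 0.38 in liver (SE 0.38), 0.88 in kidney (SE 0.44), -0.03 in lung (SE 0.40) and 0.17 in spleen (SE 0.32), with adjusted p from 0.784 to 1 in edgeR. None of the summed folds reached the minimum size. For chi-miR-33a-5p the folds were 0.77 in heart (SE 0.61), 1.05 in muscle (SE 0.76), 0.38 in liver (SE 0.57), 1.19 in kidney (SE 0.50), -0.68 in lung (SE 0.64) and -0.11 in spleen (SE 0.65). Over the alternatives they ranged from 0.42 to 1.08 in heart, -0.017 to 0.81 in liver, -1.16 to -0.29 in lung and -0.54 to 0.31 in spleen. The direction turned in liver and spleen only. In kidney the adjusted p of chi-miR-33a-5p was 0.959 from edgeR and 0.0592 from DESeq2, in a range over the alternatives from 0.0592 to 1. Over the 308 miRNAs averaging at least 10 RPM, the median altitude fold moved from 0.01 with TMM to 0.16 on library size alone in heart and from 0.16 to 0.05 in muscle, and by less in the other tissues.

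**Figure D3:**
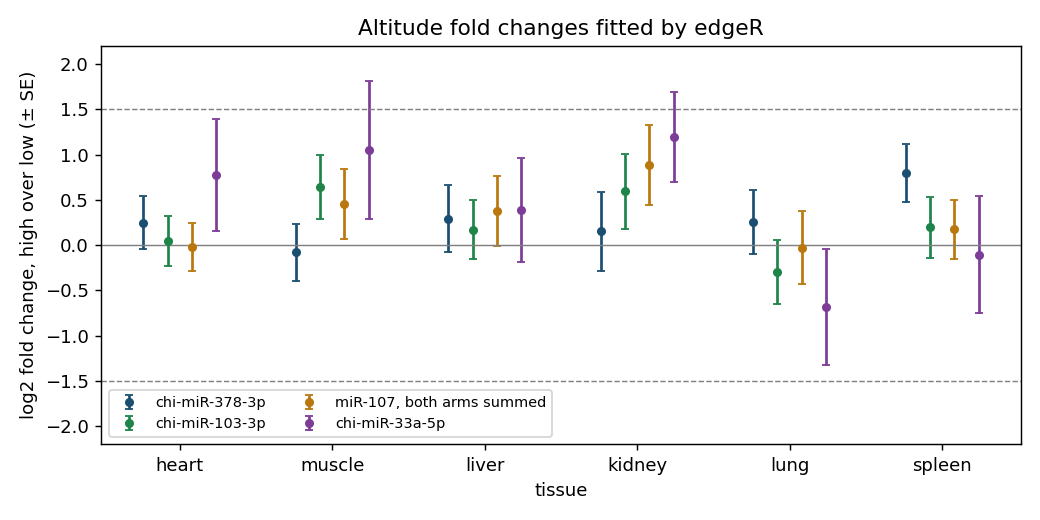
Log2 fold change of high over low altitude from edgeR (vertical axis) in each tissue for chi-miR-378-3p, chi-miR-103-3p, miR-107 with both arms summed and chi-miR-33a-5p, with 3 libraries per altitude. Bars are the standard error and dashed lines mark the minimum size of 1.5, which 0 of the points reached.

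Members with at least 10 counts in each library of 1 altitude were also compared by whether the libraries of the altitudes overlapped. In heart 1 of 6 such members did not overlap, conserve-chi-miR-378d-5p, against 35.2% of all miRNAs with that depth. In spleen it was 1 of 5, chi-miR-378-3p, against 27.7%, and in lung 2 of 7, both arms of miR-33a, against 23.6%. In muscle 0 of 6 were without overlap, against 27.9%, in liver 0 of 5, against 23.6%, and in kidney 0 of 5, against 15.3%. conserve-chi-miR-378d-5p in heart reached that depth only at high altitude and chi-miR-33a-3p in lung only at low altitude, in each case the altitude where it was higher, so their lack of overlap gives no support.

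In heart the high-altitude libraries held 11324, 11117 and 5624 counts of conserve-chi-miR-378d-5p and the low-altitude libraries 2816, 5 and 203 counts. The fitted log2 fold was 2.95 (SE 1.77, adjusted p = 0.797 from edgeR), and from 2.29 to 6.36 over the alternatives. In lung the high-altitude libraries held 80, 51 and 109 counts of chi-miR-33a-5p and the low-altitude libraries 136, 192 and 184 counts. The fitted log2 fold there was -0.68 (SE 0.64, adjusted p = 0.975 from edgeR), and from -1.16 to -0.29 over the alternatives. Neither passed the test.

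Whether the altitude difference itself differed between tissues was tested in edgeR with the goat as a block and 5 degrees of freedom. Of the 10 members 0 were called, against 0.144% of all miRNAs, with 0 members at an unadjusted p under 0.05, against 92 of all 1391. DESeq2's likelihood ratio test also called 0 members, with 58 calls over all miRNAs.

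Over goats, the mean over the 6 tissues of log2(RPM + 1) of chi-miR-378-3p was 11.92, 12.72 and 11.95 in the high-altitude goats and 11.99, 11.76 and 12.12 in the low-altitude goats. The altitudes overlapped, and the difference of 0.24 gave p = 0.7 in a two-sided exact permutation test of the 6 goats (20 assignments, adjusted p = 0.9 over 3 miRNAs), where 0.1 is the smallest p possible. For chi-miR-103-3p the difference was 0.19 (exact permutation p = 0.5, adjusted p = 0.9), with goats from 9.77 to 10.51 at high altitude and from 9.48 to 10.33 at low altitude. For chi-miR-107-3p it was -0.31 (exact permutation p = 0.9, adjusted p = 0.9), and with both arms summed 0.27 (exact permutation p = 0.5).

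The miRNAs most like chi-miR-378-3p were sought by Pearson correlation of log2(RPM + 1) over the 36 libraries, which share goats and fall into 6 tissues, among 301 other miRNAs averaging at least 10 RPM. They were chi-miR-133a-3p and chi-miR-133b-5p, the muscle miRNAs with equal counts (r = 0.933), and conserve-chi-miR-486-3p (r = 0.881). Most like chi-miR-103-3p were chi-miR-93-5p (r = 0.928), chi-miR-330-5p (r = 0.887) and chi-miR-130a-3p (r = 0.870). For chi-miR-107-3p, whose row is near 0 where the 5p name was used, they were chi-miR-181c-3p (r = 0.541), conserve-chi-miR-6119-5p (r = 0.527) and chi-miR-15b-5p (r = 0.501). chi-miR-133a-3p averaged 123717 RPM in heart and 236115 RPM in muscle against 2539 RPM in liver, and chi-miR-93-5p averaged 1258 RPM in spleen, 720 RPM in liver and 116 RPM in muscle.

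Other miRNAs named in the group of miR-15 and miR-107 were described by the counts of both arms. The seed that the group shares lies on 1 arm of each precursor, and the 3p forms named here are the opposite arms of theirs. Of 10 names 7 were listed, with 14 mature forms, of which 8 averaged at least 10 RPM. In heart and muscle against the other 4 tissues 0 were called higher and 2 lower, chi-miR-15b-3p and chi-miR-497-3p, both averaging under 10 RPM, against 79 and 89 of all 1391, with a median log2 fold change of -0.53 over the 14 against -0.40 over all 1391. Heart against liver gave 0 higher and 1 lower, chi-miR-15a-3p, and muscle against liver 0 higher and 1 lower, chi-miR-497-3p, against 67 and 88 and against 86 and 84 of all 1391. DESeq2 called 3 of the 14 in each of these contrasts, against 340 and 394 of all 1391. In heart against muscle edgeR called 0 of the 14, with 3 at an unadjusted p under 0.05 and 0 called by DESeq2, against 98, 251 and 262 of all 1391. Over the 6 altitude comparisons edgeR called 0 of 84 pairs of form and tissue, with 8 at an unadjusted p under 0.05, while DESeq2 called 5, against 3, 444 and 179 of 8346 pairs over all miRNAs.

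Other miRNAs known for lipid or glucose metabolism were given by 15 names with 27 mature forms, 17 of which averaged at least 10 RPM; miR-208a, miR-208b, miR-499 and miR-122 are also tissue markers above. In heart and muscle against the other 4 tissues 8 were called higher and 2 lower, against 79 and 89 of all 1391, with a median log2 fold change of 0.04 against -0.40. Without those 4 marker names, 19 forms of 11 names were left, of which 2 were called higher and 1 lower, with a median of -0.35. Those averaging at least 10 RPM that were higher were chi-miR-208b-3p, chi-miR-499-5p, chi-miR-499-3p, chi-miR-27b-5p and chi-miR-29c-3p, and those lower were chi-miR-122-5p and chi-miR-34a-5p. chi-miR-122-5p averaged 39.3 RPM in heart and 44.6 RPM in muscle. Its means were 50587 RPM in liver, 81.3 RPM in kidney, 41.6 RPM in lung and 21.1 RPM in spleen, so spleen was below heart and muscle. chi-miR-29c-3p, of a family that acts on collagen mRNAs, averaged 30.6 RPM in heart and 25.01 RPM in muscle, against 35.5 RPM in kidney, 21.4 RPM in lung, 18.97 RPM in spleen and 8.63 RPM in liver, so the mean of kidney was above those of heart and muscle. chi-miR-34a-5p, a transcriptional target of p53, averaged 18.1 RPM in heart and 2.501 RPM in muscle, against 136 RPM in lung, 75.4 RPM in liver, 33.9 RPM in spleen and 17.2 RPM in kidney, so the mean of kidney was below that of heart.

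Heart against liver called 9 of the 27 higher and 4 lower, against 67 and 88 of all 1391, with a median log2 fold change of 1.14 against -0.05. Without the marker names these were 4 and 2 of 19, with a median of 0.45. Averaging at least 10 RPM were chi-miR-208b-3p, chi-miR-499-5p, chi-miR-499-3p, chi-miR-27b-3p, chi-miR-27b-5p and chi-miR-29c-3p among the higher and chi-miR-122-5p, chi-miR-122-3p and chi-miR-29a-3p among the lower. Muscle against liver called 8 higher and 4 lower, against 86 and 84 of all 1391, with a median of -0.10 against -0.07, of which chi-miR-208b-3p, chi-miR-499-5p, chi-miR-499-3p, chi-miR-27b-5p and chi-miR-29c-3p were higher and chi-miR-122-5p, chi-miR-122-3p and chi-miR-34a-5p lower with that average, and without the marker names 3 and 2 of 19 were called, with a median of -0.29. chi-miR-27b-3p had a mean of 61878 RPM in heart and 21967 RPM in liver, with a log2 fold change of 2.27 (SE 0.26, adjusted p = 8.72e-08 from edgeR). chi-miR-29a-3p averaged 1582 RPM in heart and 8302 RPM in liver, a log2 fold change of -1.73 (SE 0.26, adjusted p = 9.26e-06 from edgeR). In heart against muscle 4 were called higher, chi-miR-208b-3p, chi-miR-499-5p, chi-miR-27b-3p and chi-miR-34a-5p, and 1 lower, chi-miR-29a-5p, which averaged under 10 RPM, against 43 and 55 of all 1391. Without the marker names 2 of 19 were higher and 1 lower in that contrast. DESeq2 called 9 of the 27 there, against 262 of all 1391. Over the 6 altitude comparisons edgeR called 0 of 162 pairs of form and tissue, with 25 at an unadjusted p under 0.05, while DESeq2 called 14. Over all miRNAs and tissues edgeR called 3 of 8346 pairs, with 444 at an unadjusted p under 0.05, and DESeq2 called 179.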

How the data were processed

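Per the labels and the methods of the study, the authors mapped small RNA reads with Bowtie to the goat genome without mismatches and quantified mature miRNAs with the miRDeep2 pipeline. The deposited values are whole-number read counts per mature miRNA, not normalized, for 1391 miRNAs in 36 libraries; CASAVA 1.8 is named in the submitters' processing notes. Tissue, altitude and replicate number came from the labels, and libraries of the same altitude and number were taken as 1 goat. RPM was taken on the total of all listed counts. Fits used edgeR 4.0.16 in R 4.3.3 (TMM, glmQLFit, glmQLFTest) on all miRNAs without a filter: 6 fits of altitude within a tissue without a block, and fits over 36 libraries with the goat as a block for 4 tissue contrasts and the interaction. Same-numbered libraries of different tissues deviated from their group means with a median correlation of 0.113 at high and 0.0352 at low altitude, against -0.0535 and -0.0221 between different goats. DESeq2 1.42.0, RLE factors, library size alone, filterByExpr, summed arms, equal rows kept once, other blocks and leaving out each goat were alternatives. Python 3.11.15, NumPy 2.4.6, SciPy 1.17.1 and pandas 2.3.3 did the rest. The fits were tested on simulated data. The members and lists were chosen with earlier results of these data known. Members averaging at least 10 RPM were given by tissue, chi-miR-378-3p, chi-miR-103-3p and chi-miR-107-3p in every library, and other members where called or where the altitudes did not overlap. From the lists, called forms averaging at least 10 RPM were named; those under 10 RPM, and the forms given with values, were picked after their values were seen.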

Additional observations from a re-analysis of the deposited data

Results flagged for a closer look

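In the 42 groups of 6 libraries formed by the 7 more abundant members and 6 tissues, 7 held a library far from the other 5. Of these, 5 concern miR-107, with all other libraries of the tissue at 0, so that any single value above 0 stands apart and the chance rate of about 1 in 20 groups does not apply to them. The other 2 are about as many as that rate would give. chi-miR-107-3p was at 426 RPM in low-altitude replicate 1 of kidney and at 0 in the other 5 kidney libraries. chi-miR-107-5p was at 241 RPM in high-altitude replicate 2 of muscle and at 856 RPM in low-altitude replicate 2 of lung, with 0 in the other 5 libraries of each tissue. It was at 0.0810 RPM in low-altitude replicate 3 of heart and at 0.106 RPM in high-altitude replicate 2 of spleen, which is 1 count in each and below the floor of 3 counts. chi-miR-33a-5p was at 20.01 RPM in high-altitude replicate 2 of kidney, against a tissue median of 6.36 RPM. conserve-chi-miR-378d-5p was at 27.2 RPM in high-altitude replicate 1 of liver, against a tissue median of 2.32 RPM.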

How the results depend on the processing

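No member was called for altitude or for the interaction of tissue and altitude under any alternative, with edgeR or DESeq2, and leaving out a goat gave 0 to 0 calls. Same-numbered goats of different altitude do not share an animal, and the correlation of their deviations within a tissue had a median of 0.00164 (over 0.1 in 7 of 18). By tissue it was over 0.1 in 3 of 3 in heart, from 0.353 to 0.513, in 2 of 3 in spleen and in 0 of 3 in kidney. With the replicate block 0 members were called for altitude in any tissue. Members called in the tissue contrasts moved by over 1.5 times in 4 settings. Heart against muscle had 3 by adjusted p alone. Heart against liver had 2 with arms summed, against 11.6% of all rows in that setting. With arms summed the 10 members are 6 rows, the called arms of miR-378 count once and miR-107 was not called. Muscle against liver had 7 with DESeq2 and 7 of 8 with filterByExpr, which called 186 of 652 miRNAs. Over all miRNAs DESeq2 called 262 in heart against muscle, 340 in heart against liver, 394 in muscle against liver and 330 in heart and muscle against the other 4, while edgeR called 98, 67 higher with 88 lower, 170 and 168 in the same order. Leaving out a goat gave 3 to 5 in heart against liver, 4 to 5 in muscle against liver and 3 to 5 in heart and muscle against the other 4 tissues, against 8.84% to 10.9%, 10.1% to 11.9% and 9.99% to 11.6% of all miRNAs.

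The tissue folds of chi-miR-378-3p kept their direction and side of the minimum size in 48 of 48 settings and those of chi-miR-103-3p in 46 of 48, passing the minimum size in the other 2. Those of chi-miR-107-3p turned in 12 of 48. Heart against liver was -0.52 with arms summed, and heart and muscle against the other 4 was -1.14. Muscle against liver was -0.050 with RLE, -1.04 on library size alone, -0.054 with DESeq2, -0.24 with filterByExpr, -1.76 with arms summed, -0.59 with no replicate block, and -0.94 to 2.22 without a goat. Summing the arms adds the counts under the 5p name; the cause of the other turns was not tested.

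Altitude folds, none of them called, turned in 7 of 84 settings for chi-miR-378-3p, 7 of 84 for chi-miR-103-3p and 25 of 82 for chi-miR-107-3p. For chi-miR-378-3p, 1 fit over 36 libraries gave -0.021 in heart and 0.0077 in muscle, and leaving out a goat gave -0.10 to 0.35 in heart, -0.22 to 0.022 in muscle and -0.15 to 0.46 in kidney. For chi-miR-103-3p in heart the fold was -0.072 with filterByExpr, -0.023 with arms summed, -0.073 with equal rows kept once, -0.21 in 1 fit over 36 libraries and -0.16 to 0.14 without a goat. chi-miR-107-3p in heart gave -0.071, -0.021, -0.072 and -0.21 in the same settings and -0.15 to 0.14 without a goat. In muscle it was -0.018 with RLE, -0.32 on library size alone, -0.018 with DESeq2, -0.033 with filterByExpr, -0.98 with the replicate block and -0.43 to 0.63 without a goat. In liver it was 0.024 with RLE, 0.025 with DESeq2, 0.38 with arms summed, 0.024 with equal rows kept once and -15.48 to 15.48 without a goat; at these ends, without replicate 3 of either altitude, that altitude is at 0 counts and the fold is set by the prior count. With arms summed it was 0.88 in kidney and -0.031 in lung, and leaving out a goat gave -0.34 to 1.08 in lung.

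Mean levels moved by over 1 SD in 10 settings. On TMM-scaled library size chi-miR-378-3p was at 27061 RPM in heart and 58234 RPM in muscle, chi-miR-103-3p at 828 RPM in heart, 419.9 RPM in muscle and 1788 RPM in spleen, and chi-miR-107-3p at 826 RPM in heart, 332 RPM in muscle and 1780.2 RPM in spleen. With arms summed chi-miR-107-3p was at 1605 RPM in liver and 1005 RPM in kidney. Over goats, the altitude difference with the median of 6 tissues was -0.090 for chi-miR-103-3p and 0.0080 for chi-miR-107-3p, which with arms summed was 0.27.

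The limits are as follows. With 3 goats per altitude, each altitude holding its own breed, a difference that missed the threshold is not shown to be absent, and breed was not tested. The reads of miR-103 and miR-107 cannot be told apart, although their counts differed by 213 to 7512 in 11 libraries. The arm names of miR-107 differ between libraries. miR-33a had at most 272 counts in a library on its main arm and 51 on its other arm. chi-miR-103-5p and conserve-chi-miR-378g-5p, with at most 12 and 6 counts, lie near the floor.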
